A study of Homo sapiens with 3 samples.

Results

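The genes described here are the replication-dependent histone genes of the clusters on chromosomes 6 and 1, which supply newly made DNA with H1, H2A, H2B, H3 and H4. They were chosen by gene symbol alone, as H1-1 to H1-6 and every symbol made of H2AC, H2BC, H3C or H4C and a number. That rule found 66 of the 61533 genes listed, with 6 genes for H1, 16 for H2A, 17 for H2B, 13 for H3 and 14 for H4. Hep3B, an established human hepatoma cell line labelled as wild type, was grown in 3 ways. One culture was kept in 1% oxygen and given sodium oxamate, for which the design text gives 48 h and which blocks lactate dehydrogenase. One was kept in 1% oxygen (hypoxia) and one in 20% oxygen (normoxia). RNA was purified on poly-T beads and sequenced in 1 library per condition, and all 3 cultures are of the same line. The series title places the study in lactate, histone H3 lysine lactylation and cholesterol uptake.

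Most of these genes have no introns, and their mRNAs are the known exception among animal mRNAs in lacking a poly(A) tail. The tail is replaced by a short stem-loop behind the coding part, which the stem-loop binding protein SLBP holds while the U7 snRNP directs cleavage just after it. The mRNAs are made in S phase, when the co-activator NPAT, phosphorylated by cyclin E and CDK2, drives the clusters, and they are degraded when replication stops. Some of the genes also give longer, polyadenylated transcripts that read past the stem-loop, in particular in differentiated or resting cells. Poly-T selection captures tailed RNA, so the levels below are those of the captured RNA and not of all histone mRNA. H2A and H2B pair with each other, H3 and H4 pair with each other, and the resulting octamer carries the DNA, while H1 binds the linker DNA between octamers.

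The stem-loop sequences are shown first because they mark the point at which the cleaved mRNA ends, and the genes differed in whether the annotated gene went on beyond that point. Each line is the stem-loop with 5 bases on either side, read 5′ to 3′ on the gene's strand from GENCODE release 29 transcripts (GRCh38), and capitals mark the stem and loop.
H2AC6, chr6:26124664-26124689 (+): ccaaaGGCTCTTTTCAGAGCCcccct
H2BC21, chr1:149886183-149886208 (-): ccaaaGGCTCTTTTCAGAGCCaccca
H2BC5, chr6:26158582-26158607 (+): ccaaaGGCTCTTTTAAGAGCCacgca
H2BC4, chr6:26123467-26123492 (-): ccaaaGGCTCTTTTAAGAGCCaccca
H3C6, chr6:26225591-26225616 (+): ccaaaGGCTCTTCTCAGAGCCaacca
H4C8, chr6:26285126-26285151 (-): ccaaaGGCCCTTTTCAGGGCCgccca
H2BC8, chr6:26216213-26216238 (-): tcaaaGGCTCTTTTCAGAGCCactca
H4C5, chr6:26204996-26205021 (+): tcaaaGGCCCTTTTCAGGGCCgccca
The search required 6 base pairs, G-T pairs allowed, around a loop of 4 bases. It found a stem-loop behind the coding part in 26 of the 62 genes that could be matched to that release. Anywhere in a transcript, a looser rule, it found one in 0.6% of its 19684 protein-coding genes, the clustered histone genes included. The other matched genes were mostly annotated there as coding part only, so the letters were not searched for beyond it. The 26 genes used 6 different 16-base cores, and 13 of them shared the core of H2AC6, H2BC21 and H2BC8.

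The deposited gene models fell into separate sets at the stem-loop. In 14 of the 26 genes the model ended 5 to 51 bases behind it, and in 10 of these at exactly 5 bases. H2BC8 and H4C5 belong to these 14. In the other 12 the model ran on for at least 430 bases of genome, introns included. H2AC6, H2BC4, H2BC5, H2BC15, H2BC18, H2BC21, H3C6 and H4C8 belong to these 12. Fragments lying wholly beyond the end of a model were not counted for it.

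The upstream sequences are shown because H2A and H2B genes often stand head to head and share one promoter. They are the 250 bases before the RefSeq start (GRCh38.p14), with capitals marking 4 motifs on either strand. These are the octamer ATTTGCAT, the box CCAAT, the element TATAAA and, in H1 genes, the box with the letters AAACACA.
H2AC6, chr6:26123922-26124171 (+): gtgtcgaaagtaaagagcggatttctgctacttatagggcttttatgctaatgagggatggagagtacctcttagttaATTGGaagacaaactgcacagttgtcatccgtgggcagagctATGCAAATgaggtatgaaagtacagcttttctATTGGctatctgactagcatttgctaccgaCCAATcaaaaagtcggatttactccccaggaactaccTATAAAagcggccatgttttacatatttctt
H2BC21, chr1:149886683-149886932 (-): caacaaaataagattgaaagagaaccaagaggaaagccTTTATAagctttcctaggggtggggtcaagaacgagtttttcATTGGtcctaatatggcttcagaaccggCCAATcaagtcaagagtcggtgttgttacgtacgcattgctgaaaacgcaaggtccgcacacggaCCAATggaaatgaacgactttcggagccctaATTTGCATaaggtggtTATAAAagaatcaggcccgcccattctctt
H1-2, chr6:26056471-26056720 (-): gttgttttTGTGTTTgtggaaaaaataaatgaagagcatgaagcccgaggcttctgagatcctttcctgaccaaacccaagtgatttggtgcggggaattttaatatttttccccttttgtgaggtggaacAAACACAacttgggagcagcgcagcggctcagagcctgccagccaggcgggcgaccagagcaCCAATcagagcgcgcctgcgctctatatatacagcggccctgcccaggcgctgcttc
Windows of 300 bases, with 50 bases behind the start included, were searched for the 61 genes matched to RefSeq and for all 27305 genes with such a window. The octamer stood in 26 of 61 windows, against 2.19% of all windows. By class it stood in 11 of 15 H2A windows, 14 of 17 H2B windows, 1 of 11 H3 windows, and 0 of the 6 H1 and 12 H4 windows. CCAAT stood in every H1, H2A, H2B and H3 window and in 3 of 12 H4 windows, against 39.7% of all windows. The H1 box stood in 6 of 6 H1 windows and in 9 of 61 in all, against 6.94%, and TATAAA in 42 of 61, against 14%. These are matches of letters in a window and not measured binding. The upstream stretches of H2AC6 and its head-to-head neighbour H2BC4 overlap by 245 bases, so the same letters can count for both genes of a pair.

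The 3 libraries held 24826365 fragments with oxamate, 26309340 in hypoxia and 27412147 in normoxia, recovered from the deposited FPKM values (fragment counts relative to the length of the gene's exons and the size of the library). With 1 library per condition there is no replicate and no p-value. Each ratio is given with a 95% interval that covers counting error only. The fragments carry no molecular identifiers, so copies of 1 molecule could be counted more than once and the interval could be too narrow. A gene was called higher or lower when its ratio, with libraries scaled by TMM (the trimmed mean of log ratios over genes), reached 2 in that direction and the higher of its libraries had 50 fragments or more. All 8 hepatocyte markers were present, with ALB at 1963 FPKM with oxamate, 2578 in hypoxia and 5362 in normoxia. The 8 summed to 2596 FPKM with oxamate, 3750 in hypoxia and 7330 in normoxia. Markers of other cell types were in part at 0 and in part clearly present, and several moved with the conditions. The 4 blood markers summed to 34.4 FPKM with oxamate, 18.4 in hypoxia and 21.9 in normoxia, nearly all in LYZ, with HBB at 0 throughout and PTPRC at 0 in all but the oxamate library. The 3 endothelial markers summed to 2.56 FPKM with oxamate, 1.07 in hypoxia and 0.178 in normoxia, nearly all in PECAM1, with CDH5 and VWF at 3 fragments or fewer. The 4 stromal markers, mainly PDGFRB and COL1A1, summed to 0.848 FPKM with oxamate, 2.75 in hypoxia and 2.05 in normoxia, with DCN at 0 throughout. The 3 cholangiocyte markers, mainly KRT19 and SOX9, summed to 196.0 FPKM with oxamate, 155.6 in hypoxia and 256.8 in normoxia. All 3 cultures are of the same line, and the part of these marker differences in the results below was not tested.

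The clustered histone genes made up a small share of the captured RNA, and the share was highest with oxamate and lowest in normoxia. They took 8482 fragments with oxamate, 6790 in hypoxia and 3906 in normoxia, or 0.0342% of the library with oxamate, 0.0258% in hypoxia and 0.0142% in normoxia. The ratio of the scaled sums was 1.63 for hypoxia over normoxia (interval 1.56 to 1.69), 1.38 for oxamate over hypoxia (1.34 to 1.43) and 2.25 for oxamate over normoxia (2.16 to 2.33). In bulk RNA, fewer cells in S phase and less histone mRNA per cell cannot be told apart. At least 1 fragment was found for 53 genes with oxamate, 53 in hypoxia and 41 in normoxia. Over all genes the numbers were 27505, 27462 and 24566 in that order, so normoxia was lowest there too. Only 13 of the 66 genes reached 50 fragments in any library, 23 reached 10 to 49, 22 had 1 to 9, and 8 had none in any library, where a count of 0 allows up to 3 fragments. The 8 without a fragment included H2AC1 and H2BC1, a head-to-head pair named here after the values were seen.

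Few genes carried most of the signal. On the FPKM scale, which allows genes of different length to be compared, H2BC12, H2AC6, H2BC5 and H1-2 were the 4 highest in every library and the only ones above 10 FPKM in each. They held 78.5% of the clustered histone fragments with oxamate, 75.0% in hypoxia and 83.9% in normoxia. H2BC12, an H2B gene at chr6:27146361-27146855 (-), led with 172 FPKM with oxamate, 156 in hypoxia and 120 in normoxia. In that gene, 74.1% of the 50-base windows of the coding part annotated in GENCODE 29 also occurred in other genes, so its reads could be split among copies and its level is uncertain. H2AC6 and H2BC5 differed by less in normoxia, at 20.8 and 21.5 FPKM, and stood in the other order with oxamate, at 63.7 and 52.0 FPKM.

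**Figure D1:**
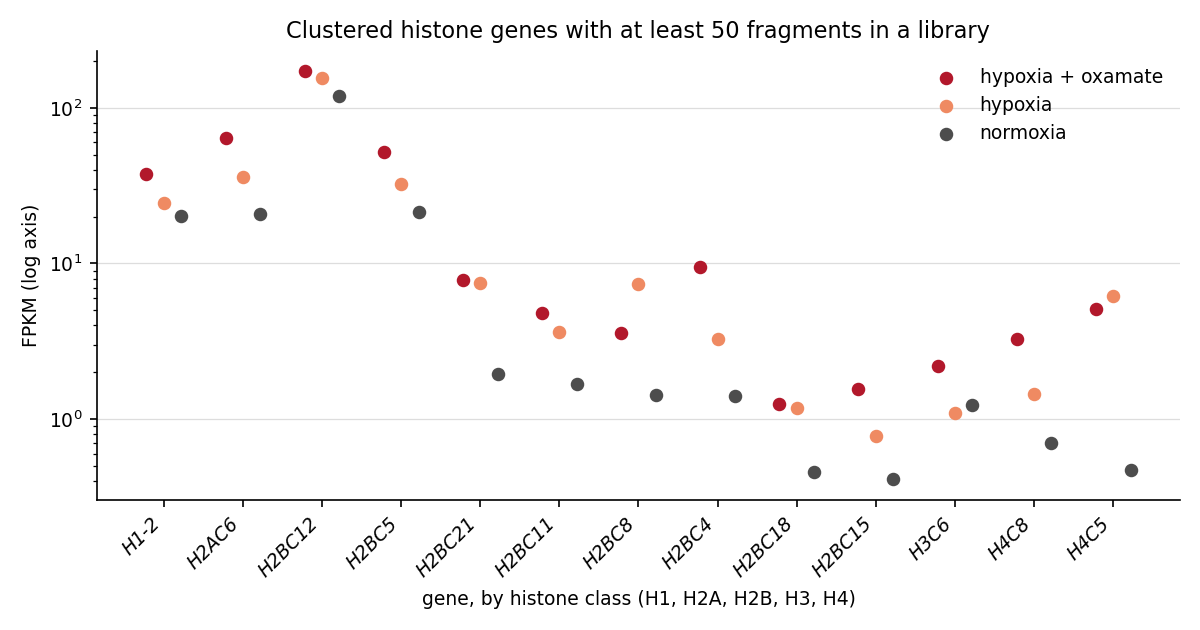
FPKM (vertical log axis) of the 13 clustered histone genes with at least 50 fragments in a library, ordered by class, with 1 point per library for hypoxia with oxamate, hypoxia and normoxia. Normoxia is the lowest point for 12 of the 13, H3C6 being the exception, and H2BC12 is the highest gene in every library.

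Hypoxia against normoxia asks what low oxygen alone did to the captured histone RNA. Of the 13 genes with at least 50 fragments in either library, 7 were at least 2-fold higher in hypoxia and 0 were lower. Among all 13554 genes with as many fragments, 10.8% were called higher and 8.07% lower. The median log2 ratio was 1.05 over the 13 genes and -0.115 over all genes. Of the 7 genes called higher, only H2BC21 also had at least 50 fragments in normoxia, at 111. The others passed the minimum only through the library where they were higher, so the count and the median lean toward such genes. Genes with at least 50 fragments in both libraries were H2BC21, H2AC6, H2BC5, H2BC12, H1-2 and H3C6, with ratios from 0.902 to 3.91. Scaling by total fragments moved the median of all genes to 0.042 and the background to 13.1% higher and 5.54% lower, and put 8 of the 13 genes above the rule, H2BC15 being added. Over all 66 genes, 48 had a ratio above 1, 7 below 1, and 11 were at 0 in both libraries. That count was not made over every gene. Of the 13554 genes with at least 50 fragments, 5870 were above 1 and 7684 below. Among the 18834 genes with at least 10 fragments, 19.2% were called higher and 9.41% lower. The RNA polymerase III transcript RN7SL1, which carries no poly(A) tail, moved the same way, with 33.1 FPKM with oxamate, 33.1 in hypoxia and 9.36 in normoxia. In a list of 11 such RNAs, added after the values were seen and filling 12 entries, 8 entries were at 0 in every library, and the summed level was 33.6 FPKM with oxamate, 35.4 in hypoxia and 10.5 in normoxia. That sum was nearly all RN7SL1, with 250 of 260 fragments with oxamate, 275 of 291 in hypoxia and 72 of 84 in normoxia. SNORD3A had 10 fragments with oxamate, 7 in hypoxia and 10 in normoxia. RNU4-2 had 0, 7 and 2 in that order, and SCARNA10 had 0, 2 and 0. The part of untailed RNA carried over in the histone result was not tested.

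Among the H2B genes, which form the core with H2A, H2BC21 had 442 fragments with oxamate, 464 in hypoxia and 111 in normoxia, or 7.86 FPKM with oxamate, 7.50 in hypoxia and 1.94 in normoxia. Its hypoxia over normoxia ratio was 3.91 (3.17 to 4.85), and both hypoxic libraries lay well above normoxia. H2BC8 had 44 fragments with oxamate, 100 in hypoxia and 18 in normoxia, or 3.56 FPKM with oxamate, 7.35 in hypoxia and 1.43 in normoxia, with a hypoxia ratio of 5.19 (3.12 to 9.12). The oxamate library of H2BC8 lay between the others and nearer to normoxia. H2BC11 had 127 fragments with oxamate, 105 in hypoxia and 45 in normoxia, or 4.80 FPKM with oxamate, 3.61 in hypoxia and 1.67 in normoxia, and a hypoxia ratio of 2.18 (1.52 to 3.17). H2BC18 had 57 fragments with oxamate, 59 in hypoxia and 21 in normoxia, or 1.25 FPKM with oxamate, 1.18 in hypoxia and 0.454 in normoxia, and a hypoxia ratio of 2.63 (1.57 to 4.55). Both hypoxic libraries were level for H2BC18, and its ratio carried a wide interval. H2BC4 had 173 fragments with oxamate, 66 in hypoxia and 26 in normoxia, or 9.46 FPKM with oxamate, 3.28 in hypoxia and 1.4 in normoxia, and a hypoxia ratio of 2.37 (1.49 to 3.89). H2BC15 had 169 fragments with oxamate, 92 in hypoxia and 45 in normoxia, or 1.57 FPKM with oxamate, 0.776 in hypoxia and 0.410 in normoxia. Its hypoxia ratio of 1.91 (1.32 to 2.79) stood just under the size rule.

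The abundant genes moved less. H2BC12 had 2152 fragments with oxamate, 2154 in hypoxia and 1525 in normoxia, and a hypoxia ratio of 1.32 (1.24 to 1.41). H2BC5 had 1133 fragments with oxamate, 775 in hypoxia and 477 in normoxia, at 52.0 FPKM with oxamate, 32.4 in hypoxia and 21.5 in normoxia, with a hypoxia ratio of 1.52 (1.35 to 1.71). For H2AC6, the only H2A gene above 50 fragments, the counts were 2686 with oxamate, 1667 in hypoxia and 892 in normoxia, at 63.7 FPKM with oxamate, 35.9 in hypoxia and 20.8 in normoxia. Its hypoxia ratio was 1.75 (1.61 to 1.90), and the 3 libraries stood in clear steps. H1-2, a linker histone gene, had 690 fragments with oxamate, 499 in hypoxia and 382 in normoxia, at 37.3 FPKM with oxamate, 24.6 in hypoxia and 20.3 in normoxia. Its hypoxia ratio of 1.22 (1.07 to 1.4) was the smallest above 1 among the 13 genes.

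The H3 and H4 genes, whose products form the inner part of the octamer, were captured at low levels. H4C5 had 53 fragments with oxamate, 71 in hypoxia and 5 in normoxia, or 5.09 FPKM with oxamate, 6.20 in hypoxia and 0.472 in normoxia. Its hypoxia ratio of 13.3 (5.43 to 42.1) was the largest among the 13 genes and rested on 5 fragments in normoxia. H4C8 had 179 fragments with oxamate, 87 in hypoxia and 39 in normoxia, or 3.27 FPKM with oxamate, 1.45 in hypoxia and 0.701 in normoxia, with a hypoxia ratio of 2.08 (1.41 to 3.12). H3C6 was the exception, with 149 fragments with oxamate, 82 in hypoxia and 85 in normoxia, or 2.20 FPKM with oxamate, 1.10 in hypoxia and 1.23 in normoxia. Its hypoxia ratio was 0.902 (0.657 to 1.24), so the 2 oxygen levels were within counting error of each other, and its log2 ratio of -0.15 was 0.007 with scaling by total fragments and 0.16 with the length trend removed. Of the 7 genes called higher in hypoxia, H2BC21, H2BC8 and H4C5 had an interval lying wholly above 2. On the scale of log2(FPKM + 1), which understates differences between low values, these 3 stayed past 2-fold and H2BC11, H4C8, H2BC4 and H2BC18 fell short, at 0.79, 0.52, 0.84 and 0.58.

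**Figure D2:**
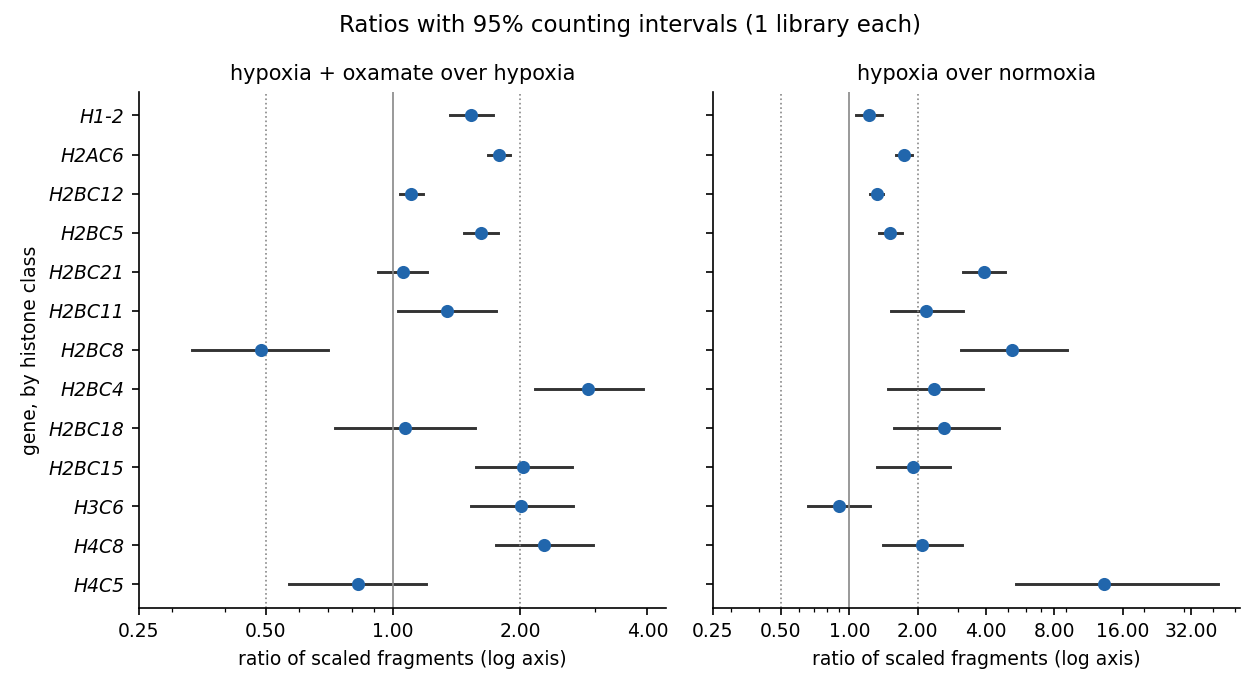
Ratio of TMM-scaled fragments (horizontal log axis) with its 95% counting interval for the 13 clustered histone genes with at least 50 fragments in a library, for hypoxia with oxamate over hypoxia (left) and hypoxia over normoxia (right). Solid lines mark 1 and dotted lines the 2-fold rule, and in the right panel 12 of 13 points lie above 1, from 1.22 for H1-2 to 13.3 for H4C5.

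Oxamate against hypoxia, both in 1% oxygen, asks what the lactate dehydrogenase inhibitor added. H2BC4, H4C8, H2BC15 and H3C6 were at least 2-fold higher with oxamate, and H2BC8 was at least 2-fold lower, out of the same 13 genes. Among all 13739 genes with at least 50 fragments in these libraries, 5.92% were called higher and 5.07% lower. The median log2 ratio was 0.61 over the 13 genes and -0.013 over all genes. The oxamate over hypoxia ratio was 2.90 for H2BC4 (2.17 to 3.91), 2.28 for H4C8 (1.75 to 2.98), 2.03 for H2BC15 (1.57 to 2.65) and 2.01 for H3C6 (1.52 to 2.67). For H2BC8 it was 0.487 (0.333 to 0.701). Scaling by total fragments left 2 of the 4 genes above the rule, since H2BC15 and H3C6 stood at its edge. On the scale of log2(FPKM + 1), H2BC4 alone of these 5 stayed past 2-fold.

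The abundant genes H2AC6, H2BC5 and H1-2 were higher with oxamate, at ratios of 1.78 (1.68 to 1.90), 1.62 (1.48 to 1.77) and 1.53 (1.36 to 1.72). H2BC12 stood at 1.10 (1.04 to 1.17) and H2BC11 at 1.34 (1.02 to 1.75). H2BC21 at 1.05 (0.923 to 1.2), H2BC18 at 1.07 (0.730 to 1.56) and H4C5 at 0.826 (0.567 to 1.2) had intervals that took in 1. Over all 66 genes the direction was even, with 28 ratios above 1, 30 below 1 and 8 genes at 0 in both libraries. With the minimum lowered to 10 fragments, 7 of 36 genes were called higher and 7 lower, against 10.8% higher and 9.66% lower among all 19323 genes with as many fragments, and the median log2 ratio was 0.076.

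Among the 26 genes with a stem-loop in the annotation, where the gene model ended went with the direction of this ratio. The grouping was made after the values were seen. The 12 genes whose model ran past the stem-loop took 5060 fragments with oxamate, 3400 in hypoxia and 1745 in normoxia. Their summed ratio was 1.65 for oxamate over hypoxia (1.58 to 1.72) and 1.82 for hypoxia over normoxia (1.72 to 1.93). The 14 genes whose model ended at the stem-loop took 178 fragments with oxamate, 300 in hypoxia and 73 in normoxia. Their summed ratio was 0.656 for oxamate over hypoxia (0.542 to 0.793) and 3.84 for hypoxia over normoxia (2.97 to 5.03). Both sets were thus higher in hypoxia than in normoxia, while with oxamate they stood on opposite sides of hypoxia.

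The contrast was also there without the leading genes. Without H2AC6, the other 11 genes of the long set had an oxamate over hypoxia ratio of 1.52 (1.42 to 1.61). Without H2BC8 and H4C5, the other 12 genes of the short set had 0.695 (0.520 to 0.924). Of the 12 genes with long models, H3C10 and H4C15 went the other way, at 0.540 (0.305 to 0.931) and 0.0885 (0.0102 to 0.355), H4C15 being named after its values were seen. For H4C15, with 2 fragments with oxamate, 25 in hypoxia and 9 in normoxia, 97.2% of the 50-base windows also occurred in other genes. The 40 genes with no stem-loop found in the annotation, H2BC12, H2BC11 and all H1 genes among them, had a ratio of 1.16 (1.11 to 1.22). Many of these also had short models, which the split by stem-loop leaves out. By length alone, the 46 H2A, H2B, H3 and H4 genes with 386 to 569 exon bases had a ratio of 1.03 (0.978 to 1.09). Of these, 12 were above 1, 26 below 1 and 8 at 0 in both libraries. Without H2BC12 the ratio of these short genes was 0.760 (0.667 to 0.865).

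**Figure D3:**
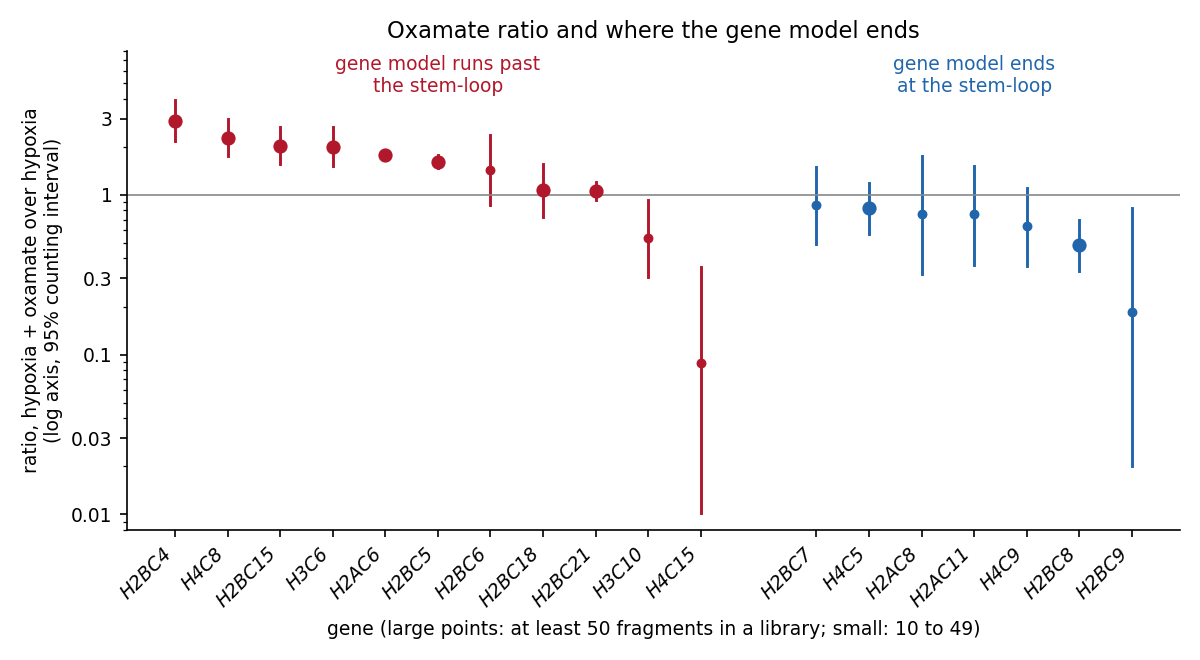
Oxamate over hypoxia ratio (vertical log axis) with its 95% counting interval for the clustered histone genes with a stem-loop in the annotation and at least 10 fragments in a library, split by whether the deposited gene model runs past the stem-loop or ends there. All 8 genes with at least 50 fragments and a long model lie above 1, from 1.05 for H2BC21 to 2.90 for H2BC4, and the 7 genes with a model ending at the stem-loop lie below 1.

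Oxamate in hypoxia against normoxia combined both differences. Of 12 genes with at least 50 fragments in either library, 9 were at least 2-fold higher with oxamate and 0 were lower, against 15.4% higher and 15.3% lower among 13597 genes. Of these 9, only H2AC6, H2BC5 and H2BC21 also had at least 50 fragments in normoxia. The median log2 ratio was 1.59 over the 12 genes and -0.11 over all genes. The oxamate over normoxia ratio ran from 1.46 for H2BC12 (1.37 to 1.56) to 11 for H4C5 (4.41 to 35.1), with 6.88 for H2BC4 (4.54 to 10.8) and 3.11 for H2AC6 (2.88 to 3.36). By scaled fragments, 10 of the 13 genes were highest with oxamate and lowest in normoxia, and H2BC8 and H4C5 were highest in hypoxia. The comparisons share libraries, so their values are given side by side and do not count as separate evidence.

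By class, the summed signal of H2A and H2B was far above that of H3 and H4. H2B held a TMM-scaled CPM (fragments relative to library size) of 175.8 with oxamate, 141.5 in hypoxia and 88.8 in normoxia. H2A held 111.3 with oxamate, 65.3 in hypoxia and 37.4 in normoxia. H1 held 29.8 with oxamate, 19.7 in hypoxia and 15.2 in normoxia. H4 held 13.4 with oxamate, 10.6 in hypoxia and 2.94 in normoxia. H3 held 8.87 with oxamate, 8.31 in hypoxia and 6.77 in normoxia. The order H2B, H2A, H1 was the same in every library, and H4 lay above H3 in both hypoxic libraries and below it in normoxia.

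For hypoxia over normoxia the ratio of sums was 3.60 for H4 (2.79 to 4.70) and 1.23 for H3 (1.01 to 1.5). It was 1.75 for H2A (1.62 to 1.89), 1.59 for H2B (1.51 to 1.68) and 1.3 for H1 (1.14 to 1.48). The class sums hid their lower members. Without H1-2, the other 5 H1 genes had 56 fragments with oxamate, 45 in hypoxia and 10 in normoxia, and a hypoxia ratio of 4.21 (2.09 to 9.36). For oxamate over hypoxia the ratio was 1.70 for H2A (1.6 to 1.81), but 0.761 (0.582 to 0.993) for the 15 H2A genes other than H2AC6. The H2A sum thus followed that 1 gene. The same ratio was 1.24 for H2B (1.19 to 1.3), 1.52 for H1 (1.36 to 1.70), 1.26 for H4 (1.08 to 1.48) and 1.07 for H3 (0.884 to 1.29). The H4 and H3 sums also leaned on 1 gene each. H4C8 held 179 of the 334 H4 fragments with oxamate, and 3 H4 genes were above 1 and 8 below. H3C6 held 149 of the 222 H3 fragments with oxamate, and 5 H3 genes were above 1 and 6 below. Of the H2B genes 12 were above 1 and 3 below, and of the H1 genes 5 and 1. For oxamate over normoxia the ratio of sums was 4.54 for H4 (3.53 to 5.91), 2.98 for H2A (2.77 to 3.21), 1.98 for H2B (1.88 to 2.08), 1.97 for H1 (1.74 to 2.23) and 1.31 for H3 (1.07 to 1.61). H4 thus had the highest ratio and H3 the lowest in both comparisons with normoxia.

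**Figure D4:**
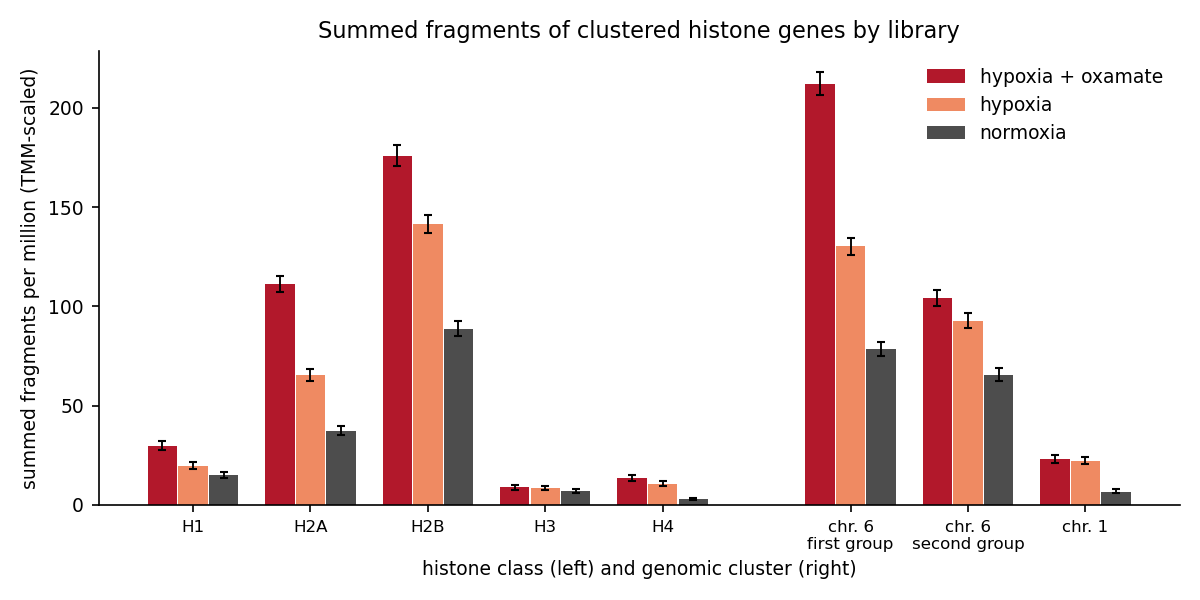
Summed TMM-scaled CPM (vertical axis from 0) of the clustered histone genes by histone class and by genomic cluster, in hypoxia with oxamate, hypoxia and normoxia, with 95% counting intervals as error bars. H2B and H2A hold most of the signal, the first chromosome 6 group is highest with oxamate at 212.1, and the chromosome 1 cluster is level in the 2 hypoxic libraries, at 22.9 with oxamate and 22.3 in hypoxia alone.

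By position (hg38), 34 genes lay in the first group on chromosome 6, chr6:25726063-26285638, 21 in the second, chr6:27125897-27893891, behind a gap of 840 kb, and 11 on chromosome 1, chr1:149782689-149887965. The first chromosome 6 group had 5305 fragments with oxamate, 3604 in hypoxia and 2033 in normoxia. Its ratio was 1.63 for oxamate over hypoxia (1.56 to 1.70) and 1.66 for hypoxia over normoxia (1.57 to 1.75). The second group had 2603 fragments with oxamate, 2568 in hypoxia and 1699 in normoxia, a ratio of 1.12 for oxamate over hypoxia (1.06 to 1.19) and one of 1.41 for hypoxia over normoxia (1.33 to 1.5), with 2152 of its oxamate fragments in H2BC12. The chromosome 1 cluster had 574 fragments with oxamate, 618 in hypoxia and 174 in normoxia. Its ratio was 1.03 for oxamate over hypoxia (0.916 to 1.15) and 3.32 for hypoxia over normoxia (2.80 to 3.95). Without H2BC21, which held most of that cluster's fragments, these were 0.948 (0.746 to 1.2) and 2.28 (1.69 to 3.11).

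Head-to-head neighbours differed per length in some libraries and were close in others. There were 11 such pairs of an H2A and an H2B gene, with 170 to 287 bases between the starts in the deposited models, and 6 held a gene with at least 50 fragments. At the promoter of H2AC6 printed above, H2AC6 had 63.7 FPKM with oxamate, 35.9 in hypoxia and 20.8 in normoxia, while H2BC4 on the other side had 9.46 with oxamate, 3.28 in hypoxia and 1.4 in normoxia. Both members of that pair were higher with oxamate than in hypoxia. At the promoter of H2BC21, its partner H2AC20 had 1.04 FPKM with oxamate, 1.82 in hypoxia and 1.73 in normoxia. H2AC20 was thus near H2BC21 in normoxia, at 1.73 and 1.94 FPKM, and below it in the hypoxic libraries. In fragments they had 22 and 111 in normoxia, on models of 494 and 2224 exon bases. H2AC20 had a hypoxia over normoxia ratio of 1.06 (0.575 to 1.98), below the whole interval of H2BC21. H2AC11, the partner of H2BC11, had 1.2 FPKM with oxamate, 1.6 in hypoxia and 1.81 in normoxia, so it too was near its neighbour in normoxia and below it in both hypoxic libraries. In fragments H2AC11 and H2BC11 had 23 and 45 in normoxia, on models of 493 and 1046 exon bases. H2AC8, the partner of H2BC8, had 0.855 FPKM with oxamate, 1.13 in hypoxia and 0.306 in normoxia, the same order as H2BC8 at a lower level. H2AC12, the partner of H2BC12, had 0.519 FPKM with oxamate, 1.1 in hypoxia and 0 in normoxia, far below H2BC12 in every library. H2AC15 had 0.957 FPKM with oxamate, 1.52 in hypoxia and 0.862 in normoxia, which was above its partner H2BC15 in hypoxia and normoxia and below it with oxamate. This order depends on the model length, at 496 exon bases for H2AC15 and 4265 for H2BC15. In fragments H2AC15 was below H2BC15 in every library, at 12 and 169 with oxamate, 21 and 92 in hypoxia and 11 and 45 in normoxia. The annotated exon of H2AC15 is wholly overlapped by other annotated exons. H2AC20, H2AC11, H2AC8, H2AC12 and H2AC15 had at most 25 fragments in a library, too few for the size rule.

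Of the 23 genes with 10 to 49 fragments at most, the 5 with the most fragments were H3C10, H3C3, H2BC6, H4C12 and H4C9. H3C10 had 21 fragments with oxamate, 43 in hypoxia and 29 in normoxia. H3C3 had 6 with oxamate, 43 in hypoxia and 28 in normoxia. These 2 H3 genes were lowest with oxamate. H2BC6 had 40 fragments with oxamate, 31 in hypoxia and 7 in normoxia, with 28.2% of its exon bases overlapping other annotated exons. H4C12 had 39 with oxamate, 18 in hypoxia and 1 in normoxia, and all of its 50-base windows, 100%, also occurred in other genes. H4C9 had 22 with oxamate, 38 in hypoxia and 6 in normoxia. The strand setting of the counting is not given in the sources used here, so reads of overlapping antisense genes cannot be told apart.

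Histone genes outside the rule had lower medians. They are a mixed list of replacement variants, whose mRNAs are mostly polyadenylated, and other histone genes that the symbol rule leaves out. Among the latter, H3-4, H2AW and H2BU1 stand together at chr1:228424845-228463104. Of 13 genes of this list with at least 50 fragments, 1 was called higher and 0 lower in hypoxia against normoxia. The 1 is 7.69% of the 13, against 10.8% called higher and 8.07% lower among all genes. The median log2 ratio was -0.091, or 0.066 with scaling by total fragments. With oxamate against hypoxia 0 were called in either direction (against 5.92% higher and 5.07% lower of all genes), and the median was -0.418. The gene called higher was H4-16, an H4 gene on chromosome 12, with 1.64 FPKM with oxamate, 2.78 in hypoxia and 0.269 in normoxia. H2AW, an H2A gene, had 2.74 FPKM with oxamate, 1.77 in hypoxia and 1.51 in normoxia. H1-10, a linker histone gene, had 32.2 FPKM with oxamate, 29.5 in hypoxia and 34.8 in normoxia.

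Among the H2A variants, H2AZ1, which marks promoters, had 71.4 FPKM with oxamate, 91.8 in hypoxia and 168 in normoxia. Its paralogue H2AZ2 had 60.3 with oxamate, 91.1 in hypoxia and 71.3 in normoxia. H2AX, the variant phosphorylated at DNA breaks, had 27.0 FPKM with oxamate, 47.6 in hypoxia and 72.7 in normoxia. Both H2AZ1 and H2AX were lowest with oxamate and highest in normoxia. H2AJ had 4.31 FPKM with oxamate, 6.65 in hypoxia and 7.15 in normoxia. MACROH2A1 had 7.60 with oxamate, 9.74 in hypoxia and 12.4 in normoxia. MACROH2A2 had 3.28 with oxamate, 5.46 in hypoxia and 4.35 in normoxia. All 6 of these H2A variants were below their hypoxia level with oxamate. Of the H3 variants, H3-3A had 59.4 FPKM with oxamate, 79.8 in hypoxia and 73.9 in normoxia. H3-3B had 66.5 with oxamate, 84.1 in hypoxia and 100.3 in normoxia. CENPA, the H3 variant of centromeres, had 4.46 FPKM with oxamate, 7.29 in hypoxia and 10.7 in normoxia. CENPA, H2AZ1 and H2AX were the 3 called lower with oxamate against normoxia (23.1% of the 13 tested, against 15.3% of all genes).

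The genes of DNA replication, which are expressed with the clustered histone genes in S phase, were lower where these were higher. All 43 listed S-phase genes had a ratio below 1 in hypoxia against normoxia, or 40 with scaling by total fragments (POLD3, POLE and RFC1 turned). The median log2 ratio was -0.569, or -0.412 with that scaling. The size rule called 0 higher and 3 lower, GINS3, POLA2 and CDC6, the last named after its values were seen, and 1 lower with that scaling. The 3 are 6.98% of the list, near the 8.07% called lower among all genes. With oxamate against hypoxia 0 were called higher and 4 lower (9.3% of the list, against 5.07% of all genes), CCNA2, GINS1, GINS2 and GINS4, also named after their values were seen, with a median of -0.412. Against normoxia, oxamate gave 0 higher and 24 lower of 43 (55.8%, against 15.3% of all genes), with a median of -1.05. With scaling by total fragments these were 0 and 19, against 13.1% lower of all genes, with a median of -0.956. POLE, RFC1 and TYMS were then above 1.

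PCNA, the sliding clamp of DNA polymerase, had 100 FPKM with oxamate, 140 in hypoxia and 219 in normoxia. GINS3, a part of the replicative helicase, had 1.25 FPKM with oxamate, 1.67 in hypoxia and 3.79 in normoxia. POLA2, a polymerase alpha subunit, had 1.41 with oxamate, 1.73 in hypoxia and 3.53 in normoxia. The 2 S-phase genes nearest to no difference were POLD3, with 2.33 FPKM with oxamate, 2.68 in hypoxia and 2.77 in normoxia, and POLE, with 9.73 with oxamate, 9.62 in hypoxia and 10.3 in normoxia. Both stayed within a narrow range. CCNE1, which activates CDK2, had 7.52 FPKM with oxamate, 10.1 in hypoxia and 15.3 in normoxia. CCNE2 had 2.79 with oxamate, 2.27 in hypoxia and 3.18 in normoxia. CDK2 had 18.6 with oxamate, 18.8 in hypoxia and 25.9 in normoxia. CCNE1, CCNE2 and CDK2 were all below their normoxic level in both hypoxic libraries. The part of cell cycle distribution in the histone result was not tested.

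The factors that make, process and degrade histone mRNA were mostly near or below their normoxic level. Of 26, 0 were called higher and 2 lower in hypoxia against normoxia (1 lower with scaling by total fragments), with a median log2 ratio of -0.357. The 2 are 7.69% of the list, near the 8.07% called lower among all genes. With oxamate against hypoxia 0 were called (against 5.92% higher and 5.07% lower of all genes), with a median of -0.135. SLBP had 28 FPKM with oxamate, 25.6 in hypoxia and 43.2 in normoxia. NPAT had 4.03 FPKM with oxamate, 3.48 in hypoxia and 3.37 in normoxia. SLBP was below its normoxic level in both hypoxic libraries, and NPAT was slightly above it. The 2 called lower were LSM10, a protein of the U7 snRNP, with 6.20 FPKM with oxamate, 5.16 in hypoxia and 14.2 in normoxia, and SNRPF, an Sm protein, with 7.85 with oxamate, 12.8 in hypoxia and 28.3 in normoxia. The 2 with the highest ratios were TUT7, a uridylyltransferase of RNA decay, with 11.2 FPKM with oxamate, 8.74 in hypoxia and 5.42 in normoxia, and CASP8AP2, a co-factor of histone gene expression, with 8.24 with oxamate, 7.74 in hypoxia and 5.83 in normoxia. Against normoxia, oxamate gave 1 higher, TUT7 (3.85% of the list, against 15.4% of all genes), and 5 lower (19.2%, against 15.3%). Besides LSM10 and SNRPF, the 5 were CSTF2, CPSF3 and SNRPE, named after their values were seen.

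Histone chaperones, which carry histones to DNA, followed the S-phase genes in direction. Of 25 tested, 0 were called higher and 1 lower in hypoxia against normoxia (4% lower, against 8.07% of all genes), with a median log2 ratio of -0.459. With scaling by total fragments 1, ATRX, was called higher and 0 lower. The gene called lower was HIRA, the H3.3 chaperone, with 3.17 FPKM with oxamate, 2.89 in hypoxia and 6.19 in normoxia. TONSL, which reads new H4, followed with 7.09 with oxamate, 8.46 in hypoxia and 16.8 in normoxia. ATRX, which deposits H3.3 with DAXX, had the highest ratio, with 7.62 FPKM with oxamate, 7.58 in hypoxia and 3.98 in normoxia, and CABIN1 came next with 14.8 with oxamate, 16 in hypoxia and 15.3 in normoxia. With oxamate against hypoxia 0 were called higher and 1 lower (4%, against 5.07% of all genes), ASF1B, named after its values were seen. Against normoxia, oxamate gave 0 higher and 10 lower of 25 (40% lower, against 15.3% of all genes). With scaling by total fragments these counts were 1 and 6, against 17.1% higher and 13.1% lower of all genes.

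**Figure D5:**
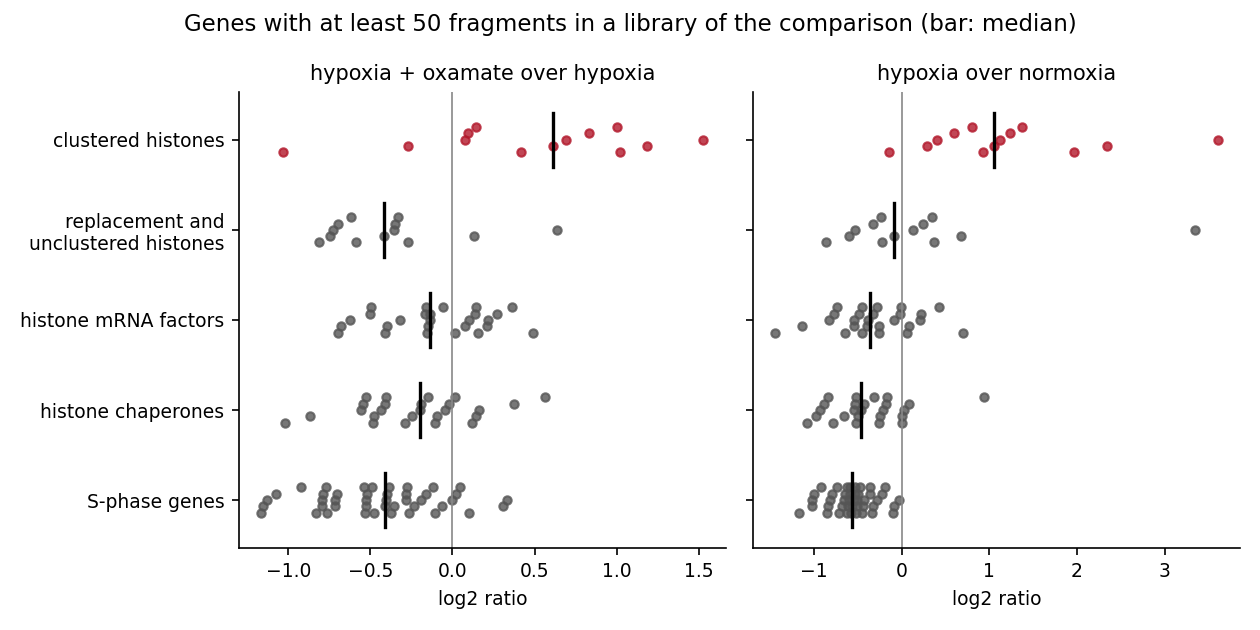
Log2 ratio (horizontal axis) of each gene with at least 50 fragments in a library of the comparison, for hypoxia with oxamate over hypoxia (left) and hypoxia over normoxia (right), with a bar at each list's median. For oxamate over hypoxia the medians are 0.61 in the clustered histone genes and -0.412 in the S-phase genes, and for hypoxia over normoxia they are 1.05 and -0.569.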

How the data were processed

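The deposited tables give FPKM per gene, made by the authors from poly(A)-selected libraries of 3 µg RNA. The tools named per the submitters' processing notes are featureCounts 1.5.0-p3, edgeR 3.22.5, HISAT2 2.0.5 and StringTie 1.3.3b, with build hg38. FPKM times exon length was a whole multiple of 1 constant per library for 100.0% of genes (within 0.01), which gave back the fragment counts. Libraries were scaled by TMM over genes with at least 10 fragments (factors 1.01 with oxamate, 1.05 in hypoxia and 0.943 in normoxia). Ratios have exact conditional binomial (Clopper-Pearson) intervals, and log2 ratios in medians used a prior of 0.5 fragments. The size rule was tested on simulated counts. The genes and lists were chosen with earlier results of these data known.

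Every clustered histone gene with at least 50 fragments in a library was named. Of those with 10 to 49, the 5 with the most fragments were named. Of the other lists, replacement histones with 50 fragments, the 2 highest and 2 lowest hypoxia ratios, SLBP, NPAT, CCNE1, CCNE2, CDK2 and PCNA were named, except 1 gene that is not reported here. Alternatives were other scalings, fragment minimums, priors, FPKM pseudocounts, length and GC trends, and omission of overlapping or dominant genes. Analyses used scipy 1.17.1, numpy 2.4.6, statsmodels 0.14.6 and pandas 2.3.3 under Python 3.11.15.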

Additional observations from a re-analysis of the deposited data

How the results depend on the processing

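No paired analysis was possible because each condition has 1 library, and for the same reason no library could be left out. Under scaling by total fragments the ratio of summed histone fragments was 1.81 for hypoxia over normoxia, 1.32 for oxamate over hypoxia and 2.40 for oxamate over normoxia. Without the 3 genes with the most fragments, an alternative added after the values were seen, these were 2.03, 1.27 and 2.57. With the length trend removed the first was 1.75. With a minimum of 10 fragments, 21 of 34 genes were called higher in hypoxia (19.2% of all genes), 7 higher and 7 lower of 36 with oxamate against hypoxia (10.8% and 9.66%; median log2 ratio 0.076), and 21 higher and 2 lower of 31 with oxamate against normoxia (23.1% and 15.4%). With a minimum of 100 fragments, 3 of 7 were called higher in hypoxia (8.4% of all genes). With the whole interval required beyond 2-fold, 3 were called higher in hypoxia (6.96%), and 1 higher and 0 lower with oxamate against hypoxia (3.57% and 2.23%). With oxamate against hypoxia, 2 were called higher under scaling by total fragments and also with no low-count filter in the scaling. The causes were not tested beyond what each setting changes by construction. Ratios from the deposited FPKM, a prior of 5, the GC trend and omission of the 15 genes overlapping others moved no count by over 1.5 times and no median or sum beyond its interval. For single genes, 273 ratios were recomputed, of which 249 stayed within their counting interval. Past the size rule, 18 calls were lost, 13 of them with an FPKM pseudocount (10 of 21 calls at 1 and 3 at 0.1, those at 0.1 being H4C8 in hypoxia and H2BC15 and H3C6 with oxamate), and 5 were gained. No called ratio changed sign, and H3C6 in hypoxia, not called, did so under scaling by total fragments and with the length trend removed. Depth limits the 53 genes under 50 fragments, for which only large differences could be seen.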

Other observations

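Some of the genes with few fragments differed strongly between single libraries, and they were named after their values were seen. H1-4, a linker histone gene, had 33 fragments with oxamate, 34 in hypoxia and 2 in normoxia, a hypoxia over normoxia ratio of 15.9 (4.07 to 136.5). H2AC18, on chromosome 1, had 24 fragments with oxamate, 5 in hypoxia and 2 in normoxia, an oxamate over hypoxia ratio of 5.31 (1.99 to 17.8). H2AC19, also on chromosome 1, had 4 fragments with oxamate, 10 in hypoxia and 0 in normoxia. Its oxamate over hypoxia ratio was below 1, at 0.44 (0.101 to 1.53). Neither gene was matched to GENCODE 29, so the sequence they share with each other or with other genes was not measured. H3C3 and H3C1, both in the first group on chromosome 6, were lower with oxamate than in hypoxia, at 0.154 (0.0537 to 0.364) and 0.111 (0.00255 to 0.778). H2BC9 was lower as well, at 0.184 (0.0200 to 0.828).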
